A study of Mus musculus with 15 samples.

Results

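Genes that mark T lymphocytes and natural killer (NK) cells were followed in whole lung tissue of mice that breathed spontaneously or were mechanically ventilated. The set holds 37 genes chosen by name, 25 of T cells and 12 of NK and other cytotoxic cells, and each gene was read from the array row whose only annotated symbol is that gene. A row was found for 35 of the 37, 23 T cell genes and all 12 NK cell genes, each with exactly 1 row, out of 19934 genes with a single symbol and 28361 rows in all. Lck, the kinase that starts T cell receptor signalling, and Tcf7, a transcription factor of naive T cells, have no row named here. The genes were picked with earlier results of these data known.

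RNA of the inferior right lung lobe was hybridised to whole-transcript Affymetrix arrays, with 1 array per mouse and 5 mice in each of 3 groups. All animals were males of the inbred strain C57BL/6N and weighed 24 to 26 g. Every mouse, controls included, was anesthetized with ketamine (90 mg/kg) plus acepromazine (1 mg/kg) and carried an arterial line and a tracheal tube. Control mice then breathed synthetic air on their own for 6 h. Air-ventilated mice were ventilated for the same time at a tidal volume of 12 ml/kg with a positive end-expiratory pressure of 2 cmH2O, and H2S-ventilated mice received identical ventilation with 80 ppm hydrogen sulfide (H2S) in the synthetic air. The lungs were lavaged at the end of the experiment, and the sources used here do not say whether this lobe was lavaged. A further group, breathing H2S without ventilation, is not analysed here. Age is not given for any group.

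T cells recognise peptides through a receptor whose CD3 chains pass the signal inwards, helped by the coreceptors CD4 or CD8 and tuned by costimulatory and inhibitory surface proteins. NK cells lack that receptor. They read activating and inhibitory surface receptors on their targets and kill with granules that carry perforin, which opens membranes, and granzymes, the proteases that enter through it. The lung holds both kinds of lymphocyte, in its tissue and in the blood of its vessels, and activated CD8 T cells share much of the granule programme. In a whole lobe, fewer cells of a type and less RNA per cell cannot be told apart. The array median intensity was 179 to 187 over the 15 mice. Mice are named below by their label numbers, and their second number runs from 1 to 12 in 3 mice of each group and from 20 to 28 in the other two. The sources used here do not say what these numbers stand for.

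The 23 T cell genes as a list stayed close to control. With air ventilation 1 of the 23, Cd2, fell at an adjusted p under 0.05 (limma, Benjamini-Hochberg over all 28361 rows) and 0 rose, while 1.89% of all rows fell and 1.56% rose. With H2S ventilation 1 of the 23, again Cd2, fell and 0 rose, beside 3.93% and 3.92% of all rows. The median log2 difference of the list from control was -0.08 with air, from -0.76 to 0.18, and -0.09 with H2S, from -0.63 to 0.37. The median of all rows was 0.01 and 0.00. Single mice moved these list medians: with air to 0.00 without control 13_25 or air-ventilated 35_26, to 0.02 without 12_10, to -0.17 without control 6_5 and to -0.16 without 6_2, and with H2S to 0.02 without control 13_25, -0.17 without control 6_5, -0.02 without 15_20, -0.05 without 9_12 and -0.06 without control 5_1. The T cell genes lay below 0 in 15 of 23 with air and in 17 of 23 with H2S, where 45.5% and 49.5% of all rows did.

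NK cell genes were further from control, but in the main fit of 15 arrays none of the 12 passed that test in either comparison. In fits of fewer mice, Klrb1c passed with air when only the 2 groups were compared. Ncr1 passed with H2S without mouse 11_6 or without mouse 15_20. With the runs of 4 numbers as a block, 1 passed with air and 2 with H2S. The share of all rows called in these alternative fits was not counted, so these counts cannot be set against one. Their median log2 difference was -0.49 with air, from -1.14 for Ncr1 to 0.11 for Tbx21, and -0.46 with H2S, from -1.29 for Ncr1 to -0.13 for Ifng. With air 11 of the 12 lay below 0, and with H2S all 12. At an unadjusted p under 0.05, 3 of the 12 were lower with air and 4 with H2S, beside 7.51% and 10.6% of all rows. The same count for the T cell genes was 2 and 1 of 23. The 5 control mice are common to both comparisons, so the results with air and with H2S are not independent of each other.

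How many NK cell genes were called depended on the test. CyberT, the Bayesian t-type test of which the study used a form, called 3 of the 12 lower with air and 4 with H2S at an adjusted p under 0.05, where it called 3.35% and 4.84% of all rows lower. It called 1 of the 23 T cell genes in each comparison, Cd2. CyberT draws the variance of each row towards that of rows at similar intensity (confidence 15). Rows noisier than those are thus tested against a smaller spread than they showed. With the study's own thresholds applied to limma's values (p up to 0.005, adjusted p up to 0.1, fold change from 1.7 upwards), 0 of the 35 genes were called in either comparison, beside 0.959% of all rows with air and 1.45% with H2S. With CyberT at those thresholds and folds from group medians, a setting added after the values were seen, Cd2 was called lower with air, 1 of the 35 beside 1.21% of all rows, and 0 of the 35 with H2S, beside 1.84%. The 35 genes are noisy compared with the rest of the array. The residual SD, the spread of log2 values among mice of a group, had a median of 0.17 over all rows, 0.30 over the T cell genes and 0.43 over the NK cell genes. The 95% interval of a difference therefore reached a median of 0.37 to either side for the T cell genes and 0.51 for the NK cell genes, against 0.23 for all rows.

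**Figure D1:**
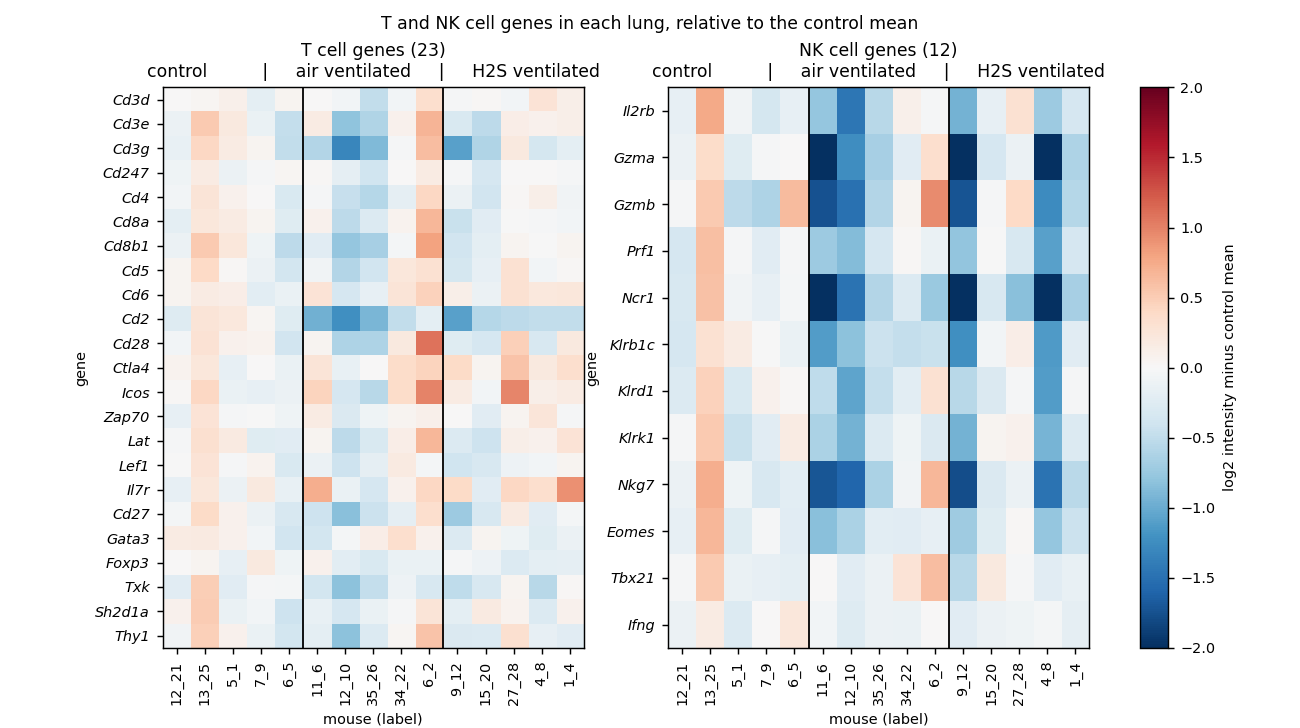
Heat map of the 23 T cell genes (left) and the 12 NK cell genes (right), with 1 row per gene and 1 column per mouse, named by its label numbers; colour is the log2 intensity minus the control mean of that gene. Columns 11_6 and 12_10 (air) and 9_12 and 4_8 (H2S) are blue across most NK cell genes, and the row of Cd2 is blue in all 10 ventilated mice.

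Among the T cell receptor components, none of the 4 CD3 chains passed the test. Cd3e encodes the CD3 epsilon chain, present in every T cell receptor complex. Its intensity was 464, 725, 572, 458 and 364 in control mice 12_21, 13_25, 5_1, 7_9 and 6_5. It was 561, 288, 332, 532 and 804 in air-ventilated mice 11_6, 12_10, 35_26, 34_22 and 6_2, and 406, 347, 552, 530 and 548 in H2S-ventilated mice 9_12, 15_20, 27_28, 4_8 and 1_4. The air-ventilated group alone held both the lowest and the highest of the 15 values, and the groups overlapped throughout. The log2 difference was -0.10 ± 0.25 (SE, n = 5 per group) in each comparison with control, with a 95% interval from -0.63 to 0.43.

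Cd3g, the gamma chain, spread further, at 477, 707, 596, 552 and 377 in controls, 351, 214, 288, 517 and 816 with air, and 249, 349, 608, 417 and 461 with H2S, in the same order of mice as for Cd3e, which all lists of values below keep. Its log2 difference was -0.44 ± 0.31 with air and -0.41 ± 0.31 with H2S (adjusted p = 0.632 and 0.532). Cd3d, the delta chain, ranged from 73.4 to 89.6 in controls, 59.2 to 106 with air and 80.5 to 101.4 with H2S, with log2 differences of -0.05 ± 0.12 and 0.07 ± 0.12. Cd247, the zeta chain, which NK cells also use for signalling, differed by -0.08 ± 0.10 in each comparison.

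The coreceptors gave similar values. Cd4, the coreceptor of helper T cells, was measured at 206, 256, 228, 216 and 174 in controls, 210, 156, 144, 189 and 287 with air and 197, 163, 218, 231 and 204 with H2S. Its log2 difference was -0.16 ± 0.16 with air, with an interval from -0.51 to 0.18, and -0.09 ± 0.16 with H2S, from -0.43 to 0.25. Cd8a and Cd8b1, the chains of the coreceptor of killer T cells, differed by 0.01 ± 0.18 and -0.18 ± 0.25 with air and by -0.15 ± 0.18 and -0.10 ± 0.25 with H2S. With air, a difference as large as the -0.76 of Cd2 lay inside the 95% interval of Cd3g (-1.09 to 0.21) and outside those of the other 6 CD3 and coreceptor genes, whose lower ends ran from -0.71 for Cd8b1 to -0.30 for Cd247. These intervals hold for the array intensity alone. Cd3d was faint, at 59.2 to 106 over all mice beside array medians of 179 to 187.

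Cd2 was the single gene of the 35 called by limma in the main fit. CD2 is an adhesion receptor on T cells and NK cells, and in mice it is also carried by B cells. Its intensity was 529, 755, 733, 651 and 537 in controls, 325, 273, 337, 448 and 553 with air and 299, 428, 443, 448 and 451 with H2S. All 5 H2S-ventilated mice lay below all 5 controls, and with air 4 of the 5 did, mouse 6_2 at 553 being inside the control range. Cd2 was the only one of the 23 T cell genes whose H2S and control groups did not overlap in the lower direction, where 4.09% of all rows did so, and 0 of the 23 did so with air, where 2.9% of rows did. The log2 difference was -0.76 ± 0.18 with air (95% interval -1.13 to -0.38, adjusted p = 0.0248) and -0.63 ± 0.18 with H2S (-1.01 to -0.25, adjusted p = 0.0385), or 1.69 times and 1.55 times lower.

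Both calls of Cd2 lay near the threshold with limma, and leaving out any 1 of several mice lost each. CyberT gave Cd2 an adjusted p of 0.000193 with air and 0.000391 with H2S. With air the call was lost without any 1 of the controls 13_25, 5_1 and 7_9 or the air-ventilated mice 11_6, 12_10 and 35_26, and over all leave-one-out fits the difference was -0.90 to -0.64 with an adjusted p of 0.0137 to 0.0724. With H2S the call was lost without any 1 of those controls or any 1 of the 5 H2S-ventilated mice, at -0.70 to -0.52 and an adjusted p of 0.02 to 0.0989. Genes that mark B cells moved alongside. Of 11 B cell markers measured (of 12 listed), 10 were called lower with air and 11 with H2S, beside 1.89% and 3.93% of all rows. Their median log2 differences were -0.90 and -1.06. Their mean log2 intensity relative to the control mean ran from -0.41 to 0.34 over the control mice, from -1.57 to -0.49 over the air-ventilated and from -1.63 to -0.84 over the H2S-ventilated mice, so neither ventilated group overlapped the controls. The part of B cells in the Cd2 values was not tested.

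**Figure D2:**
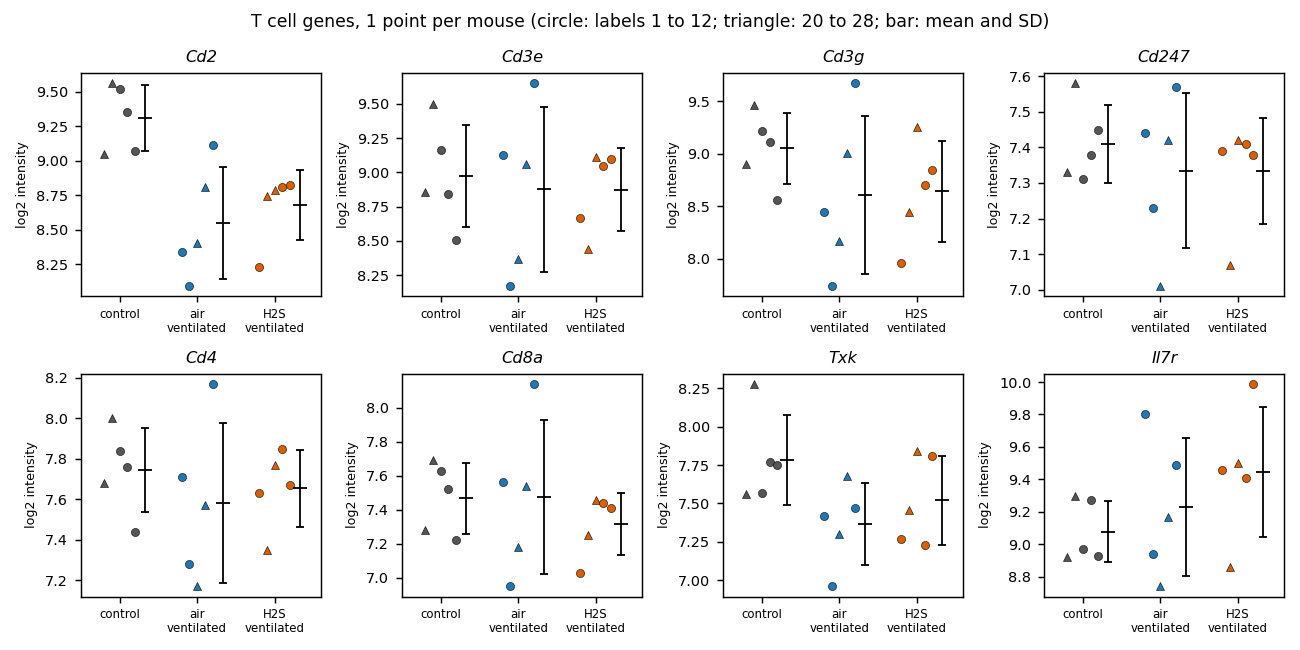
Log2 intensity of 8 T cell genes in each mouse, by group; circles are mice numbered 1 to 12 and triangles mice numbered 20 to 28, and the black bar is the group mean with its SD (n = 5). Cd2 lies lower in the ventilated groups, while in the other genes the groups overlap.

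Of the other surface proteins of T cells none passed the test. Cd5 and Cd6, which restrain receptor signalling, differed by -0.10 ± 0.18 and 0.10 ± 0.14 with air and by -0.05 ± 0.18 and 0.15 ± 0.14 with H2S. Cd28, the main costimulatory receptor, differed by 0.02 ± 0.27 and -0.05 ± 0.27. Cd27, a costimulatory receptor of the TNF receptor family found on T, B and NK cells, differed by -0.31 ± 0.20 and -0.23 ± 0.20. Thy1, a surface marker of mouse T cells that fibroblasts also carry, differed by -0.13 ± 0.21 in each comparison.

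In both comparisons Ctla4, Icos and Il7r lay above 0, and none of them passed the test. Ctla4, the inhibitory receptor that competes with CD28, was measured at 80.4, 89.3, 68, 76.5 and 69.9 in controls, 91, 68.8, 76.3, 98 and 105 with air and 99.2, 79.3, 114, 87.3 and 96.1 with H2S. With H2S 3 of 5 mice exceeded every control, and the log2 difference was 0.30 ± 0.12 (95% interval 0.04 to 0.57, adjusted p = 0.163), against 0.18 ± 0.12 with air (adjusted p = 0.616). Icos, an inducible costimulator, differed by 0.18 ± 0.25 and 0.27 ± 0.25, with mouse 6_2 at 304 and mouse 27_28 at 299 far above the other ventilated mice at 104 to 208. Il7r, the interleukin 7 receptor that keeps naive and memory T cells alive, was at 483, 632, 502, 617 and 488 in controls, 891, 492, 427, 575 and 718 with air and 703, 464, 725, 682 and 1019 with H2S. Its difference was 0.15 ± 0.20 with air and 0.37 ± 0.20 with H2S (adjusted p = 0.873 and 0.34).

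Among the signalling proteins, Zap70, the kinase that docks on the CD3 chains, differed by -0.01 ± 0.11 with air and 0.01 ± 0.11 with H2S, and Lat, the adaptor it phosphorylates, by 0.01 ± 0.19 and -0.04 ± 0.19. The interval of Zap70, -0.24 to 0.22 with air and -0.22 to 0.23 with H2S, was narrower than the median of the T cell genes. Sh2d1a, an adaptor of the SLAM receptors in T and NK cells, differed by -0.08 ± 0.15 and -0.03 ± 0.15. Txk, a Tec family kinase of T and NK cells, stood lower. Its intensity was 189, 311, 190, 218 and 215 in controls, 172, 124, 158, 205 and 177 with air and 154, 176, 229, 150 and 224 with H2S. The log2 difference was -0.42 ± 0.16 with air (95% interval -0.76 to -0.07, adjusted p = 0.222) and -0.26 ± 0.16 with H2S (adjusted p = 0.422). Txk thus missed the test in both, and its groups overlapped.

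The transcription factors of T cells were among the steadiest members. Foxp3, which defines regulatory T cells, had the smallest residual SD of the 35 genes, 0.13, and ranged from 120 to 157 in controls, 110 to 143 with air and 112 to 133 with H2S. It differed by -0.14 ± 0.09 with air (95% interval -0.33 to 0.04) and -0.16 ± 0.09 with H2S (-0.34 to 0.03). Gata3, the factor of T helper 2 cells and of innate lymphoid cells, differed by 0.03 ± 0.13 and -0.13 ± 0.13. Lef1, a factor of naive T cells, differed by -0.11 ± 0.12 and -0.17 ± 0.12.

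The NK cell genes begin with the receptor that most sharply marks the lineage. Ncr1 encodes NKp46, an activating receptor of NK cells. Its intensity was 227, 426, 268, 252 and 275 in controls, 46.3, 101.1, 188, 232 and 169 with air, and 47.8, 227, 158, 67.1 and 177 with H2S. Air-ventilated mouse 34_22 lay inside the control range and H2S-ventilated mouse 15_20 at its lower end, while the other 8 ventilated mice lay below it, mice 11_6, 9_12 and 4_8 furthest. The log2 difference was the largest of the 35 genes, at -1.14 ± 0.44 with air (95% interval -2.08 to -0.20, adjusted p = 0.219) and -1.29 ± 0.44 with H2S (-2.24 to -0.35, adjusted p = 0.0916). It did not pass in the main limma fit, while CyberT gave an adjusted p of 0.00105 and 0.000228. With the label numbers as a block, limma called Ncr1 with H2S, at an adjusted p of 0.0377 for the number sets and 0.0255 for the runs of 4 numbers.

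The promoters of 4 NK cell genes and, for contrast, that of Cd3e are shown because the NK cell genes were low in the same lungs. Each is a RefSeq sequence of mouse assembly GRCm38.p6, 250 bases before to 50 bases after the gene's start, on the strand of the gene. Capitals mark TGTGGT, the core letters bound by RUNX factors, or the same letters on the other strand, ACCACA. Ncr1 lies on the plus strand at chr7:4337465-4337764, Gzma on the minus strand at chr13:113100932-113101231, Nkg7 on the plus strand at chr7:43436888-43437187, Klrb1c on the minus strand at chr6:128788592-128788891 and Cd3e on the minus strand at chr9:45009562-45009861.
Ncr1: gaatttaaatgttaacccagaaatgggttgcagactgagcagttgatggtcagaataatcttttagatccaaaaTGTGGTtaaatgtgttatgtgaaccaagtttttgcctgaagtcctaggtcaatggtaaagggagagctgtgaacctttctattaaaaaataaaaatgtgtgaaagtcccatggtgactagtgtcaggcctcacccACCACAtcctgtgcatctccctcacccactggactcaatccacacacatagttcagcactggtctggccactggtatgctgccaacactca
Gzma: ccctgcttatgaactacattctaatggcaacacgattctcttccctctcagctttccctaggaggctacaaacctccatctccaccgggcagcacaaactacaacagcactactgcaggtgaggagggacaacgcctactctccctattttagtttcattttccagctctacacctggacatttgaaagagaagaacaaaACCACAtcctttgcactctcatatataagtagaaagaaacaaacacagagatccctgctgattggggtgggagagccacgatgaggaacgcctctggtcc
Nkg7: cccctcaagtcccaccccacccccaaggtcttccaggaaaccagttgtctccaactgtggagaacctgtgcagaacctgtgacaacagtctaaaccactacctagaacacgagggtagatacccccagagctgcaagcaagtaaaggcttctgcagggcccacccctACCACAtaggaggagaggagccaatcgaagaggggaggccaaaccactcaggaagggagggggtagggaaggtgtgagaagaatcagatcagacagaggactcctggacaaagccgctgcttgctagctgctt
Klrb1c: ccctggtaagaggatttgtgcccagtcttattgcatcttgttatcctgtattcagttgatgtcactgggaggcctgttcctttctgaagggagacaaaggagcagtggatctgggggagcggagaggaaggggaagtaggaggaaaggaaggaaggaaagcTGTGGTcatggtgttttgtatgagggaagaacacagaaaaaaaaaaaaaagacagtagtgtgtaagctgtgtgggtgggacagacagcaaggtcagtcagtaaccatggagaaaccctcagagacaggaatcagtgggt
Cd3e: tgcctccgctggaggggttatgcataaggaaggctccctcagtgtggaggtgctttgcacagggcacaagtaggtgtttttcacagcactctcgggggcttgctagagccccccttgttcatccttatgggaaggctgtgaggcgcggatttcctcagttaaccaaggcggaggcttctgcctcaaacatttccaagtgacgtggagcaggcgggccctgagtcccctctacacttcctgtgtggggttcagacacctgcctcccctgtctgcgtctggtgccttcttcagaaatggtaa

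A promoter was given for 27 of the 37 genes, 17 of T cells and 10 of NK cells. TGTGGT occurred on either strand in 7 of the 10 NK cell promoters (Klrb1c, Klrk1, Ncr1, Nkg7, Prf1, Gzma and Gzmb), in 3 of the 17 T cell promoters (Lck, Lat and Il7r) and in 16.9% of all 27018 promoters of the same length. Ncr1 and Gzmb held it 2 times. The letters GGTGTG, the core of T-box sites, occurred in 1 of 10 NK cell and 3 of 17 T cell promoters and in 19.0% of all, and GGAAGT, an ETS core, in 3 of 10, 7 of 17 and 24.1%. AGATAA, which factors of the GATA family bind, occurred in 0 of 10, 1 of 17 and 11.4%, and CTTTGA, bound by TCF and LEF factors, in 1 of 10, 6 of 17 and 16.2%. No match of one of these motifs overlapped a match of another in the 27 promoters. The motifs were searched with the expression values known, and a match describes letters, not a bound site.

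The remaining NK receptors followed the same mice. Klrb1c, which encodes NK1.1, the antigen that defines NK cells in this strain, was at 122, 191, 172, 152 and 141 in controls, 70.9, 87, 114, 111 and 113 with air and 66.2, 148, 169, 70.2 and 131 with H2S. With air all 5 mice lay below all 5 controls, which held for no other NK cell gene and for 2.9% of all rows. With H2S 3 of the 5 mice lay inside the control range, and 0 of the 12 NK cell genes separated the groups, beside 4.09% of all rows. The log2 difference was -0.66 ± 0.24 with air (95% interval -1.17 to -0.15, adjusted p = 0.184) and -0.50 ± 0.24 with H2S (-1.01 to 0.01, adjusted p = 0.255). CyberT called the difference with air, at an adjusted p of 0.00137, and not that with H2S, at 0.0886. With the runs of 4 numbers as a block, limma called both, at 0.0498 and 0.049. Klrd1, or CD94, the partner chain of NKG2 receptors, differed by -0.39 ± 0.24 and -0.40 ± 0.24, and Klrk1, or NKG2D, which senses stress ligands, by -0.45 ± 0.23 and -0.40 ± 0.23. Il2rb, the receptor chain through which interleukins 2 and 15 sustain NK cells, was at 417, 794, 448, 368 and 420 in controls, 273, 174, 318, 504 and 462 with air and 243, 422, 578, 285 and 370 with H2S, and differed by -0.54 ± 0.29 and -0.37 ± 0.29. The last 3 genes had adjusted p-values of 0.37 to 0.558.

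Of the granule genes, Gzmb, Gzma and Nkg7 had residual SDs of 0.88, 0.81 and 0.76, beside 0.80 for Ncr1. Gzma, granzyme A, was at 826, 1152, 746, 875 and 895 in controls, 200, 376, 561, 765 and 1122 with air and 213, 704, 827, 191 and 577 with H2S. Within each ventilated group the values thus ran from the control range down to 200 and 191, well below every control. The log2 difference was -0.79 ± 0.45 with air (adjusted p = 0.497) and -1.07 ± 0.45 with H2S (95% interval -2.02 to -0.12, adjusted p = 0.176). Without mouse 11_6 the difference with air was -0.45. CyberT called both, at 0.0315 and 0.00205.

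Gzmb, granzyme B, was at 431, 631, 303, 285 and 674 in controls, 130, 155, 290, 454 and 845 with air and 133, 429, 577, 183 and 293 with H2S. Its residual SD was above that of 99.8% of all rows, and it had differences of -0.56 ± 0.49 and -0.63 ± 0.49 (adjusted p = 0.737 and 0.542). Nkg7, a granule membrane protein, was at 757, 1355, 770, 658 and 711 in controls, 251, 273, 528, 781 and 1290 with air and 239, 672, 757, 295 and 564 with H2S. Its difference was -0.67 ± 0.42 with air and -0.84 ± 0.42 with H2S (adjusted p = 0.571 and 0.281), and CyberT called it with H2S alone, at 0.00445 against 0.132.

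Prf1, perforin, was at 204, 390, 255, 222 and 254 in controls, 156, 141, 204, 263 and 235 with air and 149, 256, 207, 122 and 205 with H2S. Its difference was -0.41 ± 0.22 with air (adjusted p = 0.457) and -0.51 ± 0.22 with H2S (95% interval -0.98 to -0.04, adjusted p = 0.196). CyberT called it with H2S, at 0.0297, and not with air, at 0.109. Ifng, interferon gamma, is the main cytokine of NK and T helper 1 cells. Its row was faint, at 76.9 to 109 over the 15 mice beside array medians of 179 to 187. The Ifng differences were -0.11 ± 0.09 and -0.13 ± 0.09, and a row this faint cannot show whether Ifng stayed steady.

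The T-box factors of NK cells gave unlike values. Eomes, needed for mature NK cells, was at 123, 218, 116, 135 and 118 in controls, 77.4, 88.8, 119, 117 and 123 with air and 84.1, 117, 140, 80 and 102 with H2S, and differed by -0.41 ± 0.19 (adjusted p = 0.354) and -0.43 ± 0.19 (adjusted p = 0.219). Tbx21, or T-bet, which T helper 1 cells also use, was at 203, 298, 190, 185 and 182 in controls, 207, 179, 192, 251 and 316 with air and 141, 238, 204, 179 and 188 with H2S. Tbx21 differed by 0.11 ± 0.17 and -0.15 ± 0.17 (adjusted p = 0.904 and 0.724), and neither factor passed. Whether the 2 factors differ from each other was not tested.

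**Figure D3:**
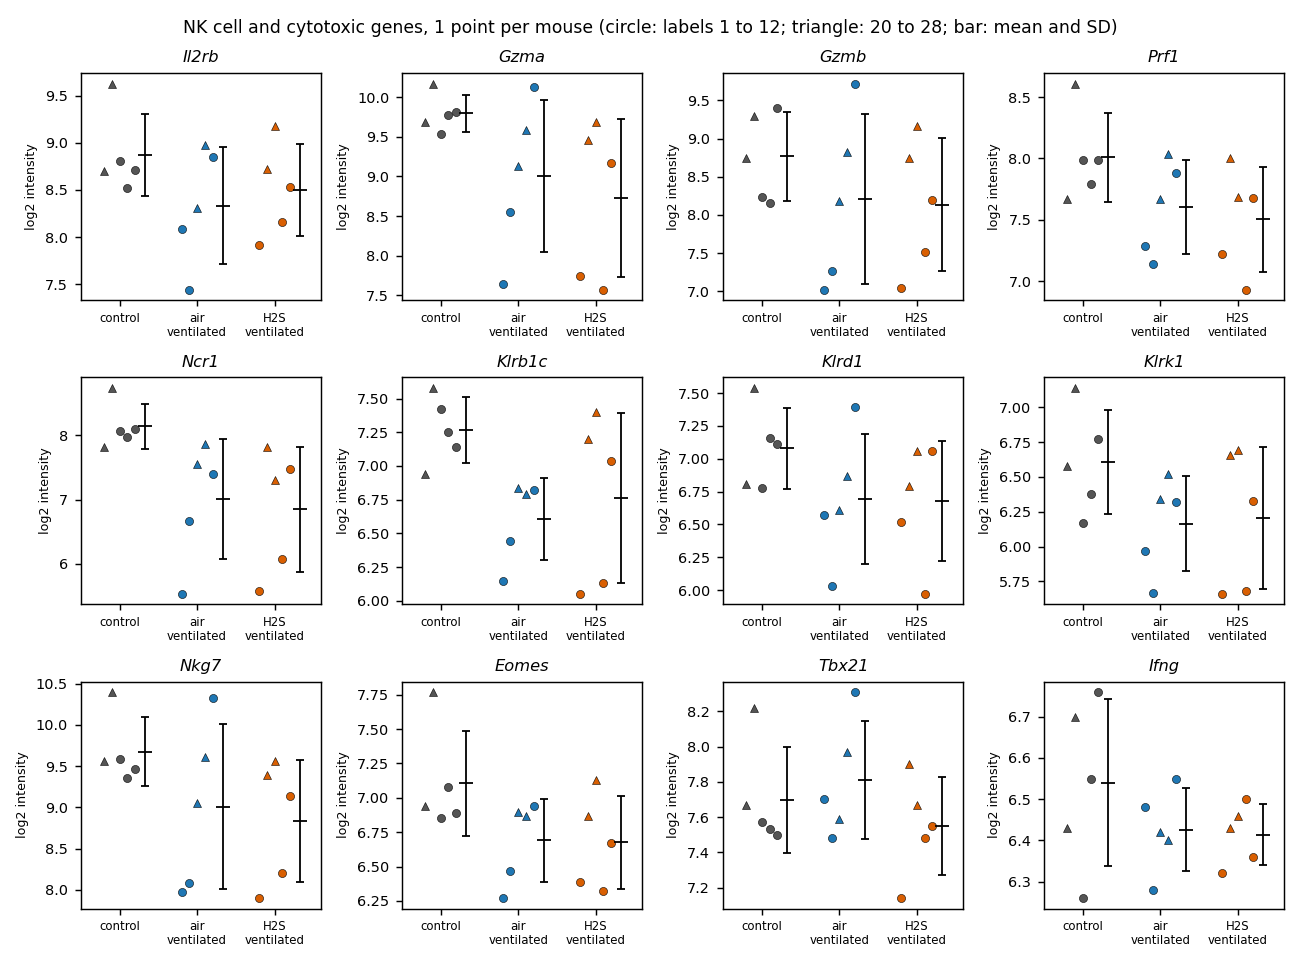
Log2 intensity of the 12 NK cell genes in each mouse, by group; circles are mice numbered 1 to 12 and triangles mice numbered 20 to 28, and the black bar is the group mean with its SD (n = 5). In most panels 2 air-ventilated and 2 H2S-ventilated circles lie below all other points. Of the remaining ventilated mice some lie inside the control range and others below it, as for Ncr1 and, with air, for Klrb1c.

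The NK cell genes were low in the same individual lungs. For 10 of the 12 genes the 4 lowest of the 15 mice were exactly air-ventilated 11_6 and 12_10 and H2S-ventilated 9_12 and 4_8, and for 11 of the 12 at least 3 of these 4 were among the lowest 4. Ifng was the exception. For the T cell genes the lowest 4 mice were this same set in 0 of 23. The pattern was shared by 7 genes of all leukocytes, whose mean over the list was also lowest in these 4 mice, at -0.36, -0.65, -0.76 and -0.41, with control 12_21 next at -0.31. Averaged over the 12 NK cell genes relative to the control mean, log2 intensity was -1.07, -1.0, -0.41, -0.10 and 0.09 in the air-ventilated mice and -1.17, -0.13, -0.05, -1.09 and -0.36 in the H2S-ventilated mice. Control mice stood at -0.17, 0.52, -0.19, -0.17 and 0.01, with mouse 13_25 the highest of all 15 for 9 of the 12 genes. Each ventilated group therefore held lungs near or below -1 beside lungs at the control level. Since these genes share their cells and arrays, the 12 are not independent counts of the same event.

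T cell genes had a partly different order of mice. Their mean was -0.05, 0.31, 0.03, -0.04 and -0.25 in controls, -0.05, -0.51, -0.39, 0.05 and 0.38 with air and -0.25, -0.24, 0.14, -0.06 and 0.05 with H2S. Mice 11_6 and 4_8, at -1.07 and -1.09 for the NK cell genes, were thus at -0.05 and -0.06 for the T cell genes. Mice 12_10 and 35_26, both ventilated with air, were most often among the lowest 4 for T cell genes, in 20 and 19 of 23. Air-ventilated mouse 6_2 was the highest of all in 11 of 23. Part of the order was shared, as 12_10 was low for NK cell genes too. H2S-ventilated 9_12, also low for those, was among the lowest 4 in 12 of 23 T cell genes, and control 6_5 in 13. Control 13_25 was the highest of all in 8 of 23.

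The 4 mice lowest for NK cell genes were the ventilated mice of 2 runs of 4 label numbers, 5 to 8 (11_6 and 4_8) and 9 to 12 (12_10 and 9_12). The controls of these runs, 6_5 and 7_9, averaged 0.01 and -0.17 for the NK cell genes. In the run from 1 to 4, control 5_1 stood at -0.19, air-ventilated 6_2 at 0.09 and H2S-ventilated 1_4 at -0.36, which is below every control. The part of the runs in this pattern was not tested. Within the mice numbered 1 to 12 the NK cell genes had a median of -0.52 with air and -0.60 with H2S, and within those numbered 20 to 28 of -0.46 and -0.24. For the T cell genes the same medians were 0.04 and 0.02 in mice 1 to 12, and -0.30 and -0.19 in mice 20 to 28. No member was called within either set, where the share of all rows called was not counted. Cd2 kept its size, at -0.80 and -0.69 in mice 1 to 12 and -0.70 and -0.54 in mice 20 to 28, and Ncr1 was at -1.52 and -1.68 against -0.57 and -0.72. Leaving out control mouse 13_25 brought the NK median to -0.33 with air and -0.32 with H2S. Markers of some other cells moved with ventilation too. Beside their counts, 1.89% of all rows were called lower and 1.56% higher with air, and 3.93% and 3.92% with H2S. Neutrophil markers averaged -0.47 to 0.56 in controls, 0.45 to 0.98 with air and 0.21 to 1.20 with H2S, with 3 and 4 of 10 called higher, and the 7 genes of all leukocytes lay below 0 in 7 of 7 in each comparison with 0 called. Endothelial markers averaged -0.12 to 0.10 in controls and -0.36 to -0.16 over the 10 ventilated mice, with 2 of 8 called lower with air and 3 with H2S. Of 7 dendritic cell markers 2 were called lower in each comparison, and of 7 monocyte and macrophage markers 1 was lower in each, with 1 higher with air and 2 with H2S. Of 10 alveolar epithelial markers 0 were called with air and 1 was lower with H2S, with medians of 0.01 and 0.04. Of 8 fibroblast and smooth muscle markers also 0 and 1 were called, with medians of -0.12 and -0.19. The part of the number sets and of these cells in the NK values was not tested.

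**Figure D4:**
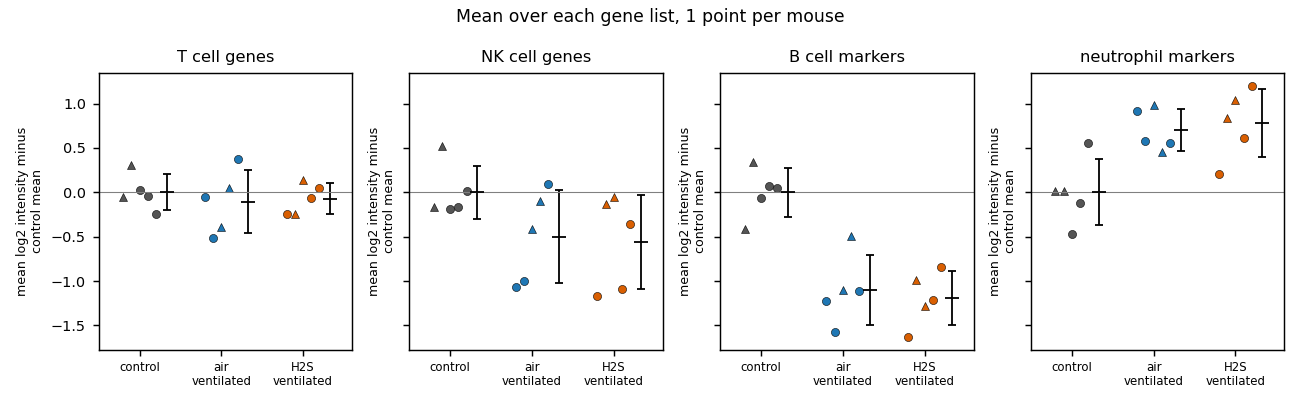
Mean over the genes of each list of log2 intensity minus the control mean, 1 point per mouse (circles 1 to 12, triangles 20 to 28), with group mean and SD (n = 5). B cell markers separate all ventilated mice from controls, NK cell genes split each ventilated group from about -1.17 to about 0, and T cell genes spread around 0.

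Next, the ventilated groups were compared directly, to see whether H2S altered these genes during ventilation. At an adjusted p under 0.05 none of the 35 genes was called, beside 0.0776% of all rows, and none at an unadjusted p under 0.05, beside 5.68% of rows. CyberT likewise called 0 of the 35, where it called 0.504% of rows. The median difference of H2S minus air was 0.05 for the T cell genes, from -0.16 to 0.22, and -0.04 for the NK cell genes, from -0.28 to 0.17. Every member had an adjusted p of at least 0.997.

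The intervals of these direct differences varied widely in what they allow. For Cd2 the H2S minus air difference was 0.13 ± 0.18, with an interval from -0.25 to 0.50, for Cd3e 0.00 ± 0.25 (-0.53 to 0.53) and for Foxp3 -0.01 ± 0.09 (-0.20 to 0.17). For Ncr1 it was -0.15 ± 0.44 (-1.10 to 0.79), for Gzma -0.28 ± 0.45 (-1.23 to 0.67) and for Gzmb -0.07 ± 0.49 (-1.10 to 0.96). A level with H2S at 0.5 times that with air, a log2 difference of -1, thus lies inside the intervals of these 3 genes and of Nkg7 (-1.06 to 0.72), and outside that of every T cell gene. At 5 mice per group such a difference cannot be told from none in these NK cell genes.

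**Figure D5:**
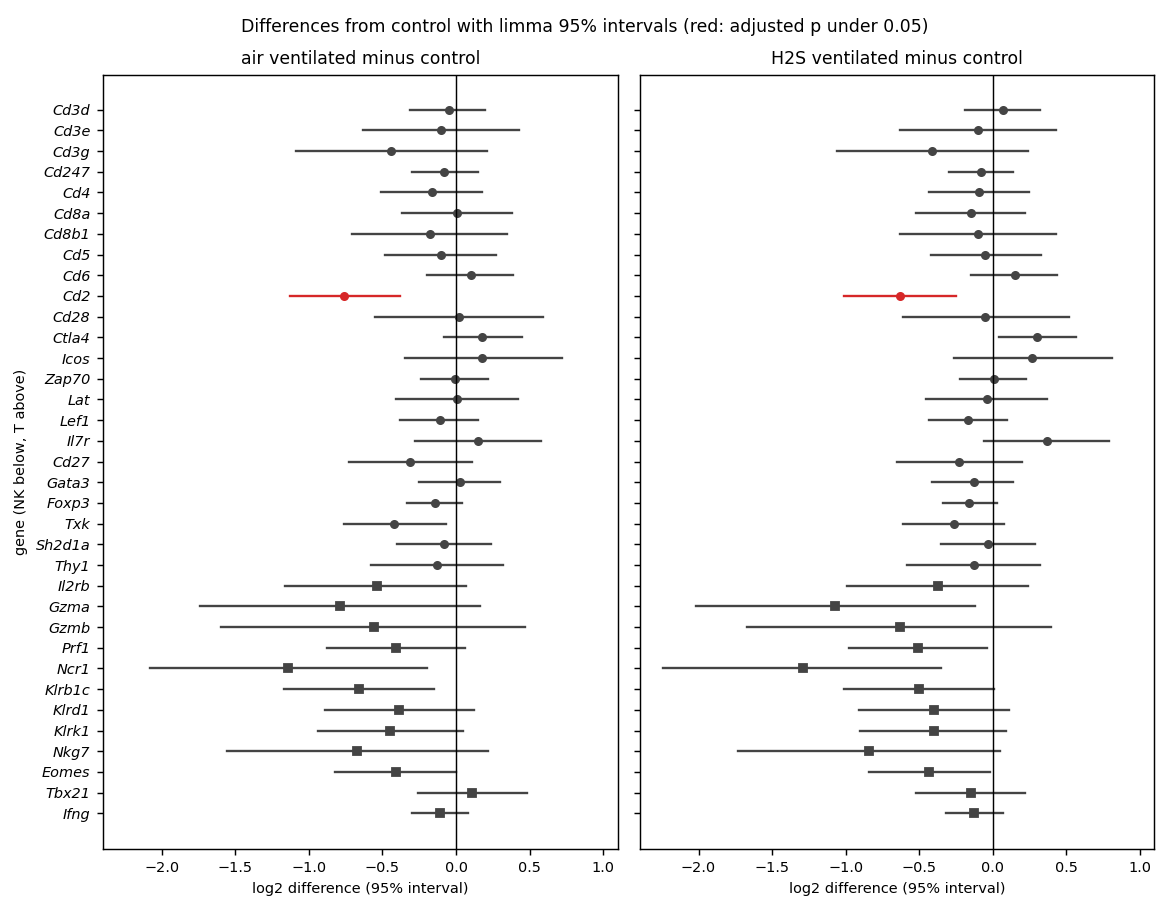
Log2 difference from control of the 35 genes with limma's 95% interval, for air ventilation (left) and H2S ventilation (right); circles are T cell genes, squares NK cell genes, and red marks an adjusted p under 0.05. Only Cd2 is red, and the intervals of Gzmb, Gzma, Ncr1 and Nkg7 are the widest.

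Further genes of the same cells were taken from lists that do not hold the members. Their counts are to be read against the 1.89% and 3.93% of all rows that fell with air and with H2S. For genes that rose, the shares of all rows were 1.56% and 3.92%. Of 33 measured genes of T cell receptor signalling and T cell function (of 35 listed), 0 passed with air and 1 fell with H2S, with medians of -0.16 and -0.15. This was Gimap4, a GTPase of lymphocyte survival, at -0.60 ± 0.12 (adjusted p = 0.00616) with H2S and -0.46 ± 0.12 (0.0516) with air. Of 27 measured NK and cytotoxic genes (of 31), 24 lay below 0 in each comparison, with medians of -0.29 with air and -0.17 with H2S. None passed with air. Klre1, an NK lectin-like receptor, was faint, at an intensity of 16.7 to 37.1 over all mice beside array medians of 179 to 187. With H2S Klre1 fell by 0.48 on the log2 scale (SE 0.12, adjusted p = 0.0209). In the same comparison Nfil3, a transcription factor needed for NK cell development and also part of clock output in many tissues, rose by 0.56 ± 0.16 (adjusted p = 0.0354).

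Among 13 measured genes of lymphocyte homing and egress (of 15), 2 fell in each comparison and 0 rose. Cxcr4, the CXCL12 receptor, fell in both, by 0.43 with air (SE 0.11, adjusted p = 0.0487) and by 0.66 with H2S (SE 0.11, adjusted p = 0.00213). Ccr7, the receptor that guides naive T cells to lymph nodes and is also carried by B cells, fell with air by 0.64 (SE 0.15, adjusted p = 0.0271) and was at -0.43 ± 0.15 with H2S (0.103). Itgal, the alpha chain of the integrin LFA-1, fell with H2S by 0.62 (SE 0.16, adjusted p = 0.0289) and was at -0.57 ± 0.16 with air (0.0714). B cells and myeloid cells express these receptors as well, and their part was not tested.

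Of 11 measured genes of gamma delta T cells and innate lymphoid cells (of 14), 1 rose with air, and with H2S 2 rose and 1 fell. Zbtb16, the PLZF factor of innate-like T cells, rose by 1.06 ± 0.22 with air and 0.99 ± 0.22 with H2S (adjusted p = 0.0134 and 0.0113), and it is also a known glucocorticoid-induced gene in many tissues. Rora, a factor of innate lymphoid cells and of the circadian clock, rose by 0.38 ± 0.09 with H2S (adjusted p = 0.0204). Kit, the stem cell factor receptor, carried by mast cells and other lung cells too, fell by 0.47 with H2S (SE 0.08, adjusted p = 0.0027). The 3 genes are thus expressed outside lymphocytes as well, and the median of the list was 0.01 with air and 0.00 with H2S.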

How the data were processed

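Per the labels and methods, the authors read the arrays with Command Console 3.0, and in Genedata Expressionist Refiner 6.1 they subtracted a GC-dependent background from anti-genomic probes, normalized by quantiles and summarized with RMA, on main and unmapped transcripts of annotation NA32. What was deposited are linear intensities, where the plan had taken them as log2, so log2 was computed here from the deposited intensities. All 28361 rows and 15 columns were used (0 columns unused). Gene symbols came from the platform annotation: 21780 rows have 1 symbol, 1617 several and 4964 none here.

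R 4.3.3 with limma 3.58.1 (lmFit, contrasts.fit, eBayes) was used with all 15 arrays in 1 fit, no covariate and Benjamini-Hochberg adjustment over all rows, with calls at an adjusted p under 0.05. Tests were two-sided, fold changes are between means of log2 values, and levels are not compared between genes, whose probes differ. Alternatives were CyberT (confidence 15), the study's thresholds, a variance trend, array weights, other scalings and filters, 2 groups alone, number sets, blocks for the label numbers and each mouse left out. CyberT with the study's thresholds on medians was added after the values were seen. The fit was tested on simulated data. Plots were drawn with matplotlib 3.10.9 in Python 3.11.15.

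The rule for naming took all members and, of other lists, at most the 3 with the smallest adjusted p. Members and lists were chosen with earlier results of these data known. Label numbers were not taken as pairing the mice in the main fit, because the sources used here do not say what they stand for. Over 13 pairs of different groups in the same run of 4 numbers, deviations correlated at 0.179 on average, from -0.179 to 0.358. The average was lower, -0.037, over 62 other pairs, and a block for the runs changed the count of NK cell genes called. The labels call the samples separate mice. The number of arrays limits the precision.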

Additional observations from a re-analysis of the deposited data

Results flagged for a closer look

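Of 105 groups of 5 mice (35 genes in 3 groups), 8 held a mouse set far apart from the other 4 by Dixon's criterion, where chance flags about 1 in 20 groups, or 5.2. Control mouse 13_25 accounted for 4 of them, being the highest of its group for Il2rb (794, next 448), Nkg7 (1355, next 770), Eomes (218, next 135) and Tbx21 (298, next 203). Among H2S-ventilated mice, 9_12 was the lowest for Cd2 (299, next 428) and 15_20 for Cd247 (135, next 166), and 27_28 was the highest for Icos (299, next 172) and Thy1 (388, next 276).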

How the results depend on the processing

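The count of T cell genes lower with air (1, Cd2) was 0 with only the 2 groups compared, at the study's thresholds, in mice 1 to 12 and in mice 20 to 28, and 0 to 1 with each mouse left out (1 in 9 of 15 fits). With H2S (1, Cd2) it was 0 with array weights, at the study's thresholds, with CyberT at those thresholds (where the count with air was 1), and in mice 1 to 12 and mice 20 to 28, and 0 to 1 with each mouse left out (1 in 7 of 15). NK cell genes lower with air (0) numbered 1 with only the 2 groups compared (Klrb1c, adjusted p = 0.0465), 3 with CyberT and 1 with the runs of 4 numbers as a block (Klrb1c, 0.0498), and 0 in every fit with a mouse left out. With H2S (0) they numbered 4 with CyberT, 1 with the number sets as a block (Ncr1, 0.0377), 2 with the runs of 4 as a block (Ncr1, 0.0255, and Klrb1c, 0.049), and 0 to 1 with each mouse left out, Ncr1 passing without air-ventilated mouse 11_6 (0.0445) or H2S-ventilated mouse 15_20 (0.0442). H2S-ventilated mouse 15_20 stands alone in its run and adds nothing to that block. Klrb1c with H2S reversed to 0.05 (adjusted p = 0.947) in mice 20 to 28. The share of all rows called was not counted for the 2 groups alone, the blocks, the number sets or the fits with a mouse left out. The causes were not tested. The direct H2S and air comparison gave 0 members under each alternative run. Over the 28 alternatives the sign stayed the same in all for 11 of 12 NK cell genes in each comparison, and for 7 of 23 T cell genes with air and 12 with H2S. Many of the 28 could not change a sign, as they keep the same difference between group means. Among these are CyberT, the study's thresholds, the variance trend, leaving out the faintest rows and the 2 groups alone. The block for number sets and leaving out a mouse of the third group are others. Averaging or choosing among rows of a gene was not run, since each member has 1 row.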
